A study of Rattus norvegicus with 24 samples.

Results

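The 5 cation channel genes Scn9a, Cacna1a, Cacna1g, Tmem37 and Trpm4 of the carotid body (CB) are described here across rat strain and side, as 5 of the 32623 genes in the deposited count table. In the files they are Scn9a (ENSRNOG00000006639), Cacna1a (ENSRNOG00000052707), Cacna1g (ENSRNOG00000060528), Tmem37 (ENSRNOG00000047714) and Trpm4 (ENSRNOG00000020714). The members were read by the identifiers that the authors' table of differentially expressed genes pairs with these symbols, and the names readable there belong to genes with higher expression in the hypertensive strain. The 5 genes were thus chosen by their fold change between the strains, and that difference is given below as a description, with no p for a member. Counts of members past a threshold in that contrast stand beside the share of all genes and support nothing. Side, the variation between rats of a strain and the single library left out of the fits were not used to choose them.

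The study sequenced polyadenylated RNA from single CBs, the small chemosensory organs at the fork of the common carotid artery, of normotensive and hypertensive rats. Male Wistar Kyoto rats (WKY, strain WKY/NHsd) and male spontaneously hypertensive rats (SHR, strain SHR/NHsd, below also SH rats) were 12 to 14 weeks old, and 6 rats of each strain gave a left and a right CB, making 24 libraries. The labels name no treatment for either group, and all animals were perfused with saline before the CBs were taken out and frozen. Both are inbred strains, WKY normotensive and SHR hypertensive, so whole genome and blood pressure differ together here and cannot be told apart. Each CB was sequenced whole, and fewer cells of a type and less RNA per cell cannot be told apart in such samples.

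A glomus cell, the chemosensory cell of the CB, depolarizes when oxygen falls, calcium then enters through voltage-gated calcium channels, and transmitter is released onto the afferent fibres of the carotid sinus nerve. Voltage-gated sodium channels carry the upstroke of action potentials, in the nerve endings as well as in excitable cells of the organ itself. Among voltage-gated calcium channels, the P/Q type opens at strong depolarization and drives transmitter release, whereas the T type opens near the resting potential and shapes firing. A separate class of channel opens when intracellular calcium rises and lets sodium in, which depolarizes the cell further.

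Upstream sequences are shown for Scn9a and Tmem37, the 2 members with the largest strain differences, for which RefSeq also gives a window that lies outside the gene. The sequences come from RefSeq (build GRCr8), both genes lie on the minus strand, and each sequence is written 5′ to 3′. That of Scn9a ends at the base before the start of transcription in the promoter table, and that of Tmem37 stops 10 bases short of it, where the gene span begins. Positions are counted back from that start to the first base of a match. Capitals mark every match to ACGTG (the core of a hypoxia response element), GGGCGG (a GC box) or CANNTG (an E-box) on either strand.
Scn9a, chr3:71701378-71701627: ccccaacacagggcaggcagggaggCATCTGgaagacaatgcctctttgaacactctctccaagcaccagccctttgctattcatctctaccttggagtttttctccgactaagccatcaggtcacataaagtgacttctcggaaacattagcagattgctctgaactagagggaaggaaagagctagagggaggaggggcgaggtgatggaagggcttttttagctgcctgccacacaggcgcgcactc
Tmem37, chr13:33743603-33743842: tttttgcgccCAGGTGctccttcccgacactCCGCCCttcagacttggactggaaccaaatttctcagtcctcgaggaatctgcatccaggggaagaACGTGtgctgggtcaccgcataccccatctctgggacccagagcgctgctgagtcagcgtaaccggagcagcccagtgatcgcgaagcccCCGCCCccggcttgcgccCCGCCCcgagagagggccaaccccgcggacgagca
The 250 bases before Scn9a held a single E-box, 225 bases before the start, and no ACGTG and no GC box. The 240 bases shown for Tmem37 held a single ACGTG, 153 bases before that start, 3 GC boxes and a single E-box. Neither window held TGACG (a cAMP response element half-site), TATAAA or AGATAA. Over 33469 rat promoter windows of 250 bases, ACGTG was found in 16.6%, GGGCGG in 30.5%, CANNTG in 65.5%, TGACG in 18.2%, TATAAA in 12.9% and AGATAA in 10.3%. These matches are letters only, and no binding was measured. RefSeq gave a window for 4 of the 5 members, and those of Cacna1a and Trpm4 lay inside the span of a longer transcript and are not printed.

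Total counts ran from 9198341 to 13655419 per library. The right CB of SH rat 34 stood apart: thyroglobulin (Tg), the storage protein of the thyroid, was at 7849 CPM (counts per 1000000 counts of the library, its total scaled by TMM) there and at 2.44 in the left CB of the same animal, and 6 glomus cell markers together were at 77.6 CPM against 930 to 2068 in the other 23 libraries. The range of 930 to 2068 was scaled over those 23 libraries and the other values here over all 24. The comparisons below use those 23 libraries, and values with all 24 are given where they differ. Of the 18 glomus markers considered, identifiers were paired for 6, among them Dbh, Chga, Chgb, Gata3 and Ret, and none was at 0 in any rat. A second library, the right CB of SH rat 30, held Tg at 218 CPM, against 29.3 CPM or less in the remaining 22.

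Scn9a encodes the pore-forming subunit of the sodium channel Nav1.7, best known from sensory and sympathetic neurons. In the left CBs of WKY its level lay between 20.6 and 41.8 CPM with a median of 28.6, and in the right CBs between 23.3 and 31.9 CPM with a median of 26.1. In the left CBs of SH rats it lay between 30.8 and 49.5 CPM with a median of 41.2, and the 5 right CBs stood at 32.999, 33.9, 47.2, 53.9 and 60.6 CPM. Values over rats average both sides, but with 23 libraries SH rat 34 enters by its left CB alone, here and below. WKY rats ranged from 24.8 to 35.7 CPM and SH rats from 36.4 to 55.1 CPM, so every SH rat lay above every WKY rat. The right CB of SH rat 34, left out of this, held Scn9a at 14.9 CPM, below all WKY libraries. The mean was 27.8 ± 3.99 CPM in WKY and 42.3 ± 7.61 CPM in SH rats (SD, n = 6 each), and the fitted log2 fold change was 0.62 ± 0.12 (SE).

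Cacna1g encodes the T-type calcium channel Cav3.1. Its level was 36.3 to 53.8 CPM (median 45.8) in left and 37.9 to 55.1 CPM (median 48.7) in right CBs of WKY. In left CBs of SH rats it was 44.3 to 68.0 CPM (median 60.7), and the right CBs held 54.4, 59.3, 68.1, 77.0 and 79.5 CPM. Single libraries of the strains overlapped, but rats did not, since WKY rats ended at 51.4 CPM and SH rats began at 52.1 CPM. Means over rats were 46.9 ± 4.55 CPM in WKY and 62.6 ± 6.26 CPM in SH rats (SD, n = 6 each), and the fitted strain difference was 0.41 ± 0.08 on the log2 scale (SE). Of all 14243 genes compared, 3.38% had every SH rat above every WKY rat, and Scn9a and Cacna1g were the 2 members among them. No member had all its SH rat libraries above all WKY libraries, which 0.927% of genes did.

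Cacna1a encodes the pore of the P/Q-type calcium channel Cav2.1. It was at 20.7 to 31.96 CPM (median 24.9) in left and 16.6 to 32.6 CPM (median 26.2) in right CBs of WKY. In SH rats the left CBs held 23.9 to 40.6 CPM (median 31.2) and the right CBs 29.1, 29.5, 31.2, 32.3 and 37.7 CPM. The rats overlapped: WKY rat 37 (32.3 CPM) reached into the range of the SH rats, which ran from 30.2 to 35.1 CPM. Spread over rats was wider in WKY, with a coefficient of variation of 17.4% against 5.77% in SH rats. By side this held on the right only, with SDs of 5.58 CPM in WKY and 3.49 CPM in SH rats. On the left the SDs were 4.34 CPM in WKY and 5.55 CPM in SH rats. The log2 fold change was 0.31 ± 0.10 (SE).

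Tmem37 encodes a transmembrane protein related to the gamma subunits of voltage-gated calcium channels, and it was scarce, with 9 to 43 reads per library. WKY libraries ran from 1.26 to 2.63 CPM on the left (median 1.61) and from 0.947 to 2.41 CPM on the right (median 1.81). SH rat libraries ran from 1.77 to 4.802 CPM on the left (median 3.03), and the right CBs stood at 1.802, 2.54, 2.68, 2.83 and 3.88 CPM. 5 of the 6 SH rats lay above all WKY rats and SH rat 30, at 1.79 CPM, lay inside their range of 1.20 to 2.30 CPM. The log2 fold change was 0.78 ± 0.20 (SE), the largest of the members and the one with the widest error.

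Trpm4 encodes a channel that intracellular calcium opens and that passes sodium and potassium but not calcium. Left CBs of WKY held 16.3 to 29.0 CPM (median 23.9) and right CBs 21.4 to 28.6 CPM (median 24.3). Left CBs of SH rats held 21.6 to 31.7 CPM (median 27.9), and right CBs held 23.03, 30.4, 31.02, 31.7 and 39.6 CPM. 4 of the 6 SH rats lay above all WKY rats, and the log2 fold change, 0.28 ± 0.09 (SE), was the smallest of the 5.

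**Figure D1:**
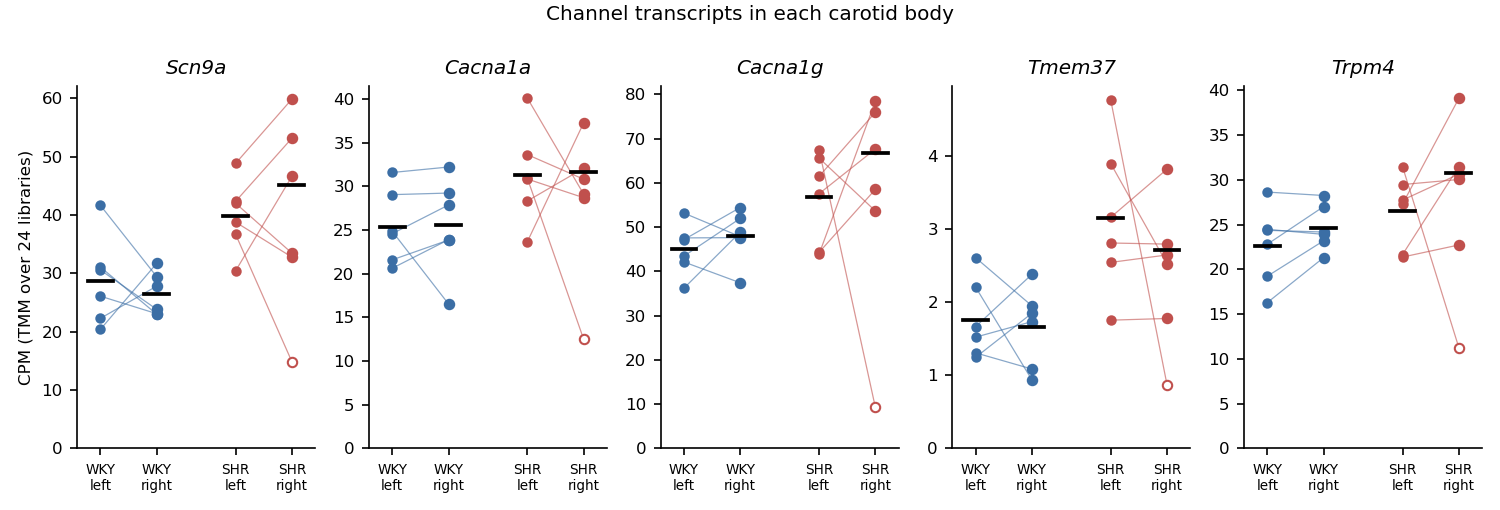
Level of each member in every CB, in CPM scaled over all 24 libraries (vertical axis, from 0), by strain and side. Points are single CBs, lines join the sides of a rat, bars are group means without the open point, and the open point is the right CB of SH rat 34, which lies below every other library for all 5 genes.

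Over the members the median log2 fold change between the strains was 0.41, against 0.01 over all genes compared. The share of genes with a larger fold change towards SH rats ran from 1.53% for Tmem37 to 9.54% for Trpm4, so other genes differed more. All 5 passed an adjusted p of 0.05 in the fit over all genes, where 20.0% of genes did so in either direction and 10.3% in this direction. This contrast supplied the names, so nothing is read from that count. The ratio of Cacna1g to Cacna1a in CPM, 1.88 ± 0.371 in WKY and 1.98 ± 0.197 in SH rats (SD, n = 6 rats each), differed by less than its spread between rats.

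The size of the difference depended on the libraries used. Left CBs alone gave log2 fold changes of 0.49 for Scn9a, 0.31 for Cacna1a, 0.35 for Cacna1g, 0.85 for Tmem37 and 0.24 for Trpm4. Right CBs alone gave 0.77, 0.30, 0.48, 0.70 and 0.32 in the same order of genes. With the right CB of SH rat 34 included they were 0.54, 0.23, 0.30, 0.69 and 0.20. The direction was the same in each of these sets, and the number of members past the threshold was 0 in left CBs, 2 in right CBs and 2 with all 24 libraries. The share of all genes called in either direction was lower in these fits too, at 9.09% in left CBs, 5.96% in right CBs and 10.4% with all 24 libraries, and nothing is read from the members' counts.

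**Figure D2:**
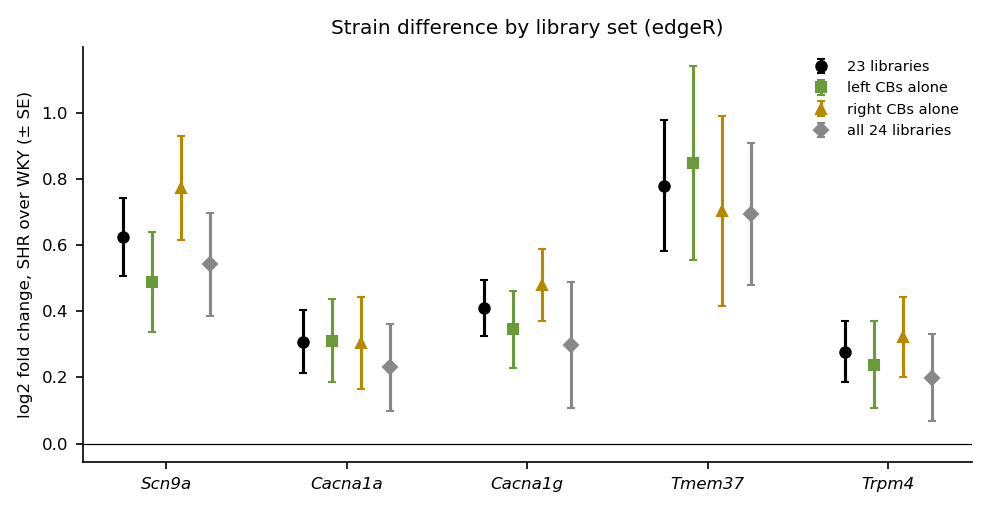
Fitted log2 fold change of each member, SH rats over WKY, with its standard error as bars, for 23 libraries, left CBs alone, right CBs alone and all 24 libraries. All points lie above 0, and with all 24 libraries every member is lower than with 23.

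Of 82 other sodium, calcium, TRP, acid-sensing, P2X and Orai channel genes listed, 9 had a paired identifier, all from the side of the authors' table with higher expression in SH rats, so their direction is no independent evidence. 3 of the 9 were called higher in SH rats, and the median log2 fold change was 0.35. The most abundant was Scn3b, a beta subunit of sodium channels, with a mean of 90.2 ± 7.91 CPM in WKY and 112 ± 19.4 CPM in SH rats (SD, n = 6 each). Cacng7, a gamma subunit of the calcium channel family that also acts on AMPA receptors, was at 39.4 ± 5.84 and 52.3 ± 3.98 CPM with no overlap of rats. Asic1, an acid-sensing sodium channel, was at 13.5 ± 1.68 and 16.4 ± 3.17 CPM and was not called. Orai1, the pore of store-operated calcium entry, was at 12.2 ± 1.57 and 15.4 ± 1.41 CPM, again with no overlap.

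Markers of several cell types moved with strain beside the members. The sum over the 6 glomus markers was 1008 to 1332 CPM in WKY rats and 1320 to 1907 CPM in SH rats, and 5 of the 6 were called higher in SH rats. All 6 macrophage markers were called, with sums of 77.1 to 117 CPM and 123 to 195 CPM, and so were both neuronal markers, Nefh and Prph, with sums of 198 to 261 CPM and 347 to 405 CPM. Smooth muscle markers were called in 1 of 5, with sums of 463 to 954 and 627 to 1195 CPM, adipocyte markers in 2 of 4, with sums of 46.0 to 64.4 and 60.4 to 106 CPM, and mast cell markers in 2 of 2, with sums of 0.414 to 1.39 and 1.34 to 6.35 CPM. Tg, the only thyroid marker, was called, at 0.379 to 5.69 CPM in WKY rats and 1.21 to 111 CPM in SH rats. No marker was at 0 in a rat. All of these markers were readable only because the authors' table lists them as higher in SH rats, and their part in the members' strain difference was not tested.

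The sides were set against each other within a strain, a contrast that the choice of genes did not use. In WKY the log2 difference, left over right, was 0.11 ± 0.15 for Scn9a, -0.01 ± 0.14 for Cacna1a, -0.10 ± 0.10 for Cacna1g, 0.08 ± 0.29 for Tmem37 and -0.12 ± 0.12 for Trpm4 (SE, 6 CBs a side). After Benjamini-Hochberg adjustment of edgeR's quasi-likelihood test, 0 of 14232 genes were called (percent called 0), 0 by DESeq2, and 276 had an unadjusted p under 0.05, no member among them. Of the 5 differences in this fit, which does not pair the sides, 4 were smaller than their standard error, and that of Trpm4 was about as large as its own. With the rat as a block they were 0.09 ± 0.15 for Scn9a, -0.00314 ± 0.10 for Cacna1a, -0.10 ± 0.08 for Cacna1g, 0.09 ± 0.31 for Tmem37 and -0.14 ± 0.09 for Trpm4 (SE). Those of Cacna1g and Trpm4 were then larger than their standard errors, and no member was called. Missing the threshold does not show that the sides were alike, since the standard errors were a sizeable part of the strain differences given above.

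In SH rats the differences were -0.17 ± 0.16 for Scn9a, -0.01 ± 0.12 for Cacna1a, -0.23 ± 0.13 for Cacna1g, 0.22 ± 0.29 for Tmem37 and -0.21 ± 0.13 for Trpm4 (SE, 6 left and 5 right CBs). Again 0 of 14183 genes were called by edgeR's quasi-likelihood test (percent called 0) and 0 by DESeq2, with 775 genes and no member at an unadjusted p under 0.05. Within single animals Trpm4 was higher on the right in 5 of 5 SH rats and in 3 of 6 WKY rats, and Cacna1g in 4 of 5 and 3 of 6. A fit with the rat as a block used only the 5 SH rats with both CBs, so SH rat 34 dropped out. In it the log2 difference was -0.12 ± 0.13 for Scn9a, -0.01 ± 0.13 for Cacna1a, -0.29 ± 0.12 for Cacna1g, 0.07 ± 0.28 for Tmem37 and -0.26 ± 0.11 for Trpm4 (SE). Its adjusted p by edgeR's quasi-likelihood test was 0.637 for Cacna1g and for Trpm4, while the unadjusted p of both was under 0.05. Leaving out SH rat 34 with no block already gave -0.28 ± 0.13 for Cacna1g, 0.08 ± 0.29 for Tmem37 and -0.26 ± 0.14 for Trpm4 (SE). The blocked values thus differ from those above by the lost rat as well as by the pairing. The right CB of SH rat 30, with its Tg at 218 CPM, entered here, and without that rat and with no block Cacna1g was at -0.10 ± 0.13 and Trpm4 at -0.25 ± 0.13, against -0.23 and -0.21 with it (SE). With the right CB of SH rat 34 added, and no block, the differences were -0.00334 ± 0.26 for Scn9a, 0.14 ± 0.21 for Cacna1a, -0.00554 ± 0.36 for Cacna1g, 0.39 ± 0.33 for Tmem37 and -0.05 ± 0.23 for Trpm4 (SE).

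Whether the strain difference itself depended on side was tested as an interaction, the left-over-right difference of SH rats minus that of WKY. It was -0.29 ± 0.23 for Scn9a, 0.01 ± 0.19 for Cacna1a, -0.14 ± 0.17 for Cacna1g, 0.14 ± 0.40 for Tmem37 and -0.09 ± 0.19 for Trpm4 (log2 ± SE). No gene of 14243 was called by edgeR's quasi-likelihood test (percent called 0) or by DESeq2, 439 had an unadjusted p under 0.05, and no member was among them. Scn9a was the member whose strain difference looked most unequal between sides (0.49 left, 0.77 right), and the interaction was little larger than its standard error. With all 24 libraries the interaction was -0.13 ± 0.32 for Scn9a, 0.15 ± 0.27 for Cacna1a, 0.08 ± 0.39 for Cacna1g, 0.30 ± 0.44 for Tmem37 and 0.06 ± 0.27 for Trpm4 (log2 ± SE).

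**Figure D3:**
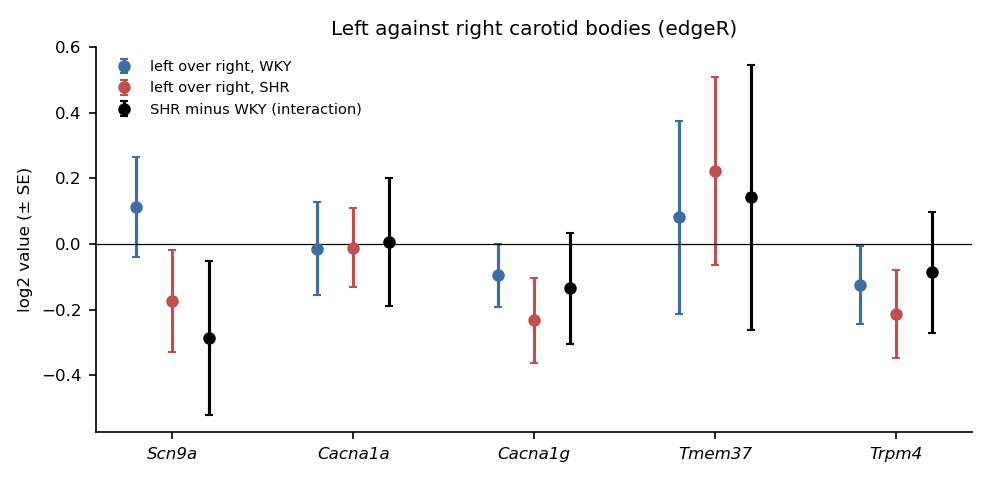
Left over right log2 difference of each member in WKY (blue) and SH rats (red), and the SH rat minus WKY difference of these (black), with standard errors as bars, from 23 libraries. The intervals of most points cross 0, and Cacna1g and Trpm4 in SH rats lie lowest of the red points.

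With the strain mean subtracted, variation between the 12 rats was compared among the members and with the mean of the 6 glomus markers, on the log2(CPM + 1) scale, which gave 15 correlations. Cacna1a followed the glomus markers, with Pearson r = 0.78 (two-sided exact permutation p = 0.00273, adjusted over the family 0.0409) and Spearman rho = 0.80 (exact permutation p = 0.00398, adjusted 0.0299) over 12 rats. Within WKY r was 0.84 and within SH rats 0.69 (6 rats each), and it was 0.72 without the 2 rats farthest from the median of the glomus markers. Left CBs alone gave r = 0.59 and right CBs alone 0.83 (11 rats), with adjusted exact permutation p of 0.178 and 0.110. The adjusted p went above 0.05 when any of 7 rats was left out (WKY 33, 34, 37 or 41, or SHR 30, 34 or 36), with r between 0.64 and 0.84 over all 12 omissions. The other members did not follow those markers as closely: r was 0.51 for Trpm4, -0.17 for Scn9a, -0.04 for Cacna1g and 0.02 for Tmem37, and the differences between these coefficients were not tested.

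Among the members themselves Cacna1a and Trpm4 varied together, with r = 0.67 (exact permutation p = 0.0148, adjusted 0.111) and rho = 0.76 (exact permutation p = 0.00377, adjusted 0.0299). The rank correlation thus passed the adjustment and Pearson's did not, and r was 0.56 without the 2 rats farthest from the median of Cacna1a. Left CBs alone gave r = 0.69 and right CBs alone 0.11 for this pair, with adjusted exact permutation p of 0.137 and 0.762, so the relation was not seen on the right. Cacna1g and Tmem37 gave r = 0.60 (adjusted exact permutation p = 0.161) and rho = 0.73 (adjusted 0.0733). Coefficients of Scn9a with the others were negative, at r = -0.67 to Tmem37 (adjusted exact permutation p = 0.157), -0.62 to Cacna1g (adjusted 0.161), -0.48 to Trpm4 and -0.30 to Cacna1a, none of which passed. The relation of Scn9a to Cacna1g was -0.16 without the 2 rats farthest from the median of Scn9a and so rested on them. With 23 libraries no pair was called by Pearson's r other than Cacna1a with the glomus markers (r = 0.86 with all 24). With all 24 libraries Cacna1a with Trpm4 was called as well, with r = 0.82 (adjusted exact permutation p = 0.00707), and Cacna1a with Cacna1g stood at 0.70 (adjusted 0.164).

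**Figure D4:**
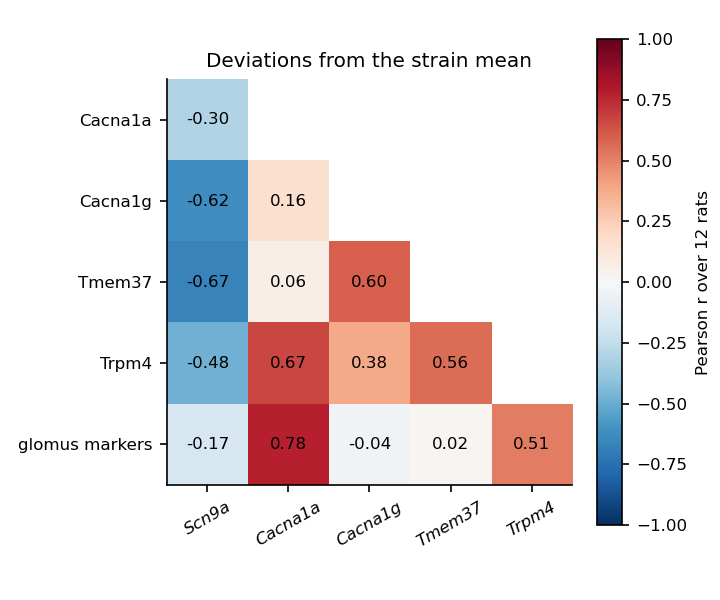
Pearson r between members, and between each member and the mean of 6 glomus markers, over 12 rats after subtraction of the strain mean (colour and number in each cell). Cacna1a with the glomus markers is highest at 0.78, and all 4 cells between Scn9a and the other members are negative.

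The genes most like each member were searched among 1272 other named genes in the same way, and are given as descriptions with no test. Names were readable only for genes listed as higher in SH rats, so most of the 14243 genes compared could not be found. Nearest to Scn9a were Sox9, a transcription factor of cartilage and glia (r = 0.74), Wif1, a secreted Wnt inhibitor (0.72), and Nat14 (0.62). Cacna1a was most like Hs3st2, a heparan sulfate sulfotransferase (0.94), Flywch1 (0.92) and Fam83h (0.87). Cacna1g was most like Adora2b, an adenosine receptor (0.85), Angpt2, a ligand of the endothelial receptor Tie2 (0.82), and Clec12b (0.81). Tmem37 went with Slc6a4, the serotonin transporter (0.89), and C1qb (0.85), the latter being in the macrophage list above. Trpm4 went with Inha, a subunit of inhibin (0.88), Wnt4 (0.88) and Asic2, an acid-sensing channel (0.88). All points share their libraries, and the highest of 1272 coefficients over 12 rats is high by selection.

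The right CB of SH rat 34 gave a view of the members in tissue with few glomus transcripts, and being a single library it allowed no test. Counts were 120 for Scn9a, 101 for Cacna1a, 75 for Cacna1g, 7 for Tmem37 and 91 for Trpm4, against 331, 279, 609, 43 and 284 in the left CB of that rat. Each member lay below all other 23 libraries, where 28.9% of all genes did so. On the log2(CPM + 1) scale, right minus left, Cacna1g stood at -2.74, Tmem37 at -1.63, Trpm4 at -1.41, Scn9a at -1.25 and Cacna1a at -1.24, against a median of -0.05 over all genes. The left CB of that rat was among the libraries behind the choice of genes, so these gaps are not free of that choice. Tmem37 was higher there than in any other library, and Cacna1g higher than in any other left CB. The same limit holds for the gene lists below, whose names were readable only for genes higher in SH rats. In CPM Cacna1g was 7.27-fold lower, Tmem37 5.50-fold, Trpm4 2.80-fold and Scn9a and Cacna1a 2.47-fold, so the gap was widest for Cacna1g. Tmem37, at 0.866 CPM in the right CB, depended on the added 1 and stood at -2.17 with 0.25 added instead.

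All 6 glomus markers lay below the other libraries there too, with a median of -3.37, and both neuronal markers with a median of -2.99. Of the 9 other cation channels 7 did so, from Cacng7 at -4.42 and Scn3b at -2.60 to Trpm5, which had no read, while Orai1 (0.12) and Asic4 (0.32) did not. Smooth muscle markers had a median of -1.28, macrophage markers -0.52, adipocyte markers 1.21 and mast cell markers 2.22, and Tg stood at 11.2. The part of each tissue in the members' levels in this library was not tested.

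**Figure D5:**
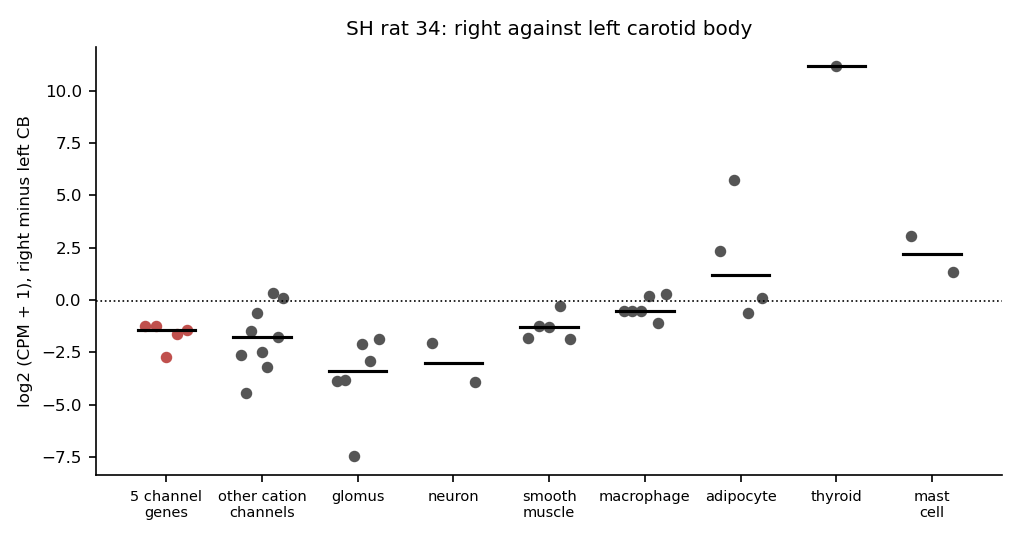
Right minus left CB of SH rat 34 on the log2(CPM + 1) scale for the 5 channel genes (red) and for other gene lists (grey). Each point is a gene, bars are medians of the lists, and the dotted line is the median of all genes (-0.05), below which all 5 channel genes and all 6 glomus markers lie. The left CB was among the libraries behind the choice of genes.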

How the data were processed

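RNA was measured in 24 CBs of 12 rats. The authors deposited raw counts per gene, with no normalization. The submitters' processing notes name FastQC, STAR, featureCounts and DESeq2, and their versions, settings, build and annotation are not given in the sources used here. Whether reads shared by overlapping or near-identical genes were counted is therefore unknown. Every column of the table was mapped to a sample (0 left over). Symbols came from 1391 rows of the authors' differential expression table, 1273 of them with a symbol, whose fold changes and p-values were not used.

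Groups followed the labels for strain and side. The right CB of SHR 34 was left out of the fits, as in the authors' table, leaving 23 libraries. Counts were scaled by TMM and fitted with edgeR 4.0.16 (quasi-likelihood, robust) in R 4.3.3 for genes with a mean normalized count above 10, with side as a covariate for strain and Benjamini-Hochberg adjustment over all genes tested (threshold 0.05). CPM are TMM-scaled. Correlations used log2(CPM + 1), sides averaged (SHR 34 by its left CB alone with 23 libraries), with rats permuted within strain. Total counts of 9198341 to 13655419 give each library's depth, and a count as low as those of Tmem37 carries a counting error of its own. Pairs of libraries of a group differed beyond sampling noise in every case, with a chi-square of at least 5.27 times its degrees of freedom. The unit of replication was the rat, and p-values over libraries treat the sides of a rat as separate. Deviations of the sides of the same animal correlated with a median of 0.12 (11 rats), against -0.03 for different rats. Rat numbers that occur in both strains did not pair samples (r from -0.23 to 0.06 over 4 numbers).

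The named genes were the 5 members, other cation channels and markers with a paired identifier (at most the 4 other channels of highest mean count by level, others in counts), and the 3 genes most like each member, of which some names are not reported here. Trpm5, Asic4 and Asic2 are named beyond this rule, after their values were seen. The members and lists were chosen with earlier results of these data known. The lists held other cation channels and glomus, neuron, smooth muscle, adipocyte, thyroid, macrophage and mast cell markers. In counts simulated from these libraries, the strain fit found 92.9% of genes changed by 1 and 100% of those changed by 2 on the log2 scale, and the interaction fit found 71.0% and 92.9%. The strain, side and interaction values of the members were all smaller than 1, and the simulated sides of a rat shared no rat effect. These rates therefore do not show how often changes of the members' size would be found. Alternatives were DESeq2 (1.42.0) as test or for size factors, other filters, all 24 libraries, each side alone, counts summed per rat, blocks (edgeR, or voom in limma 3.58.1), a pseudocount of 0.25 and each rat left out.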

Additional observations from a re-analysis of the deposited data

Results flagged for a closer look

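Of 30 groups of values (the members by strain, sides averaged or by side), 1 held a sample far from the others: among WKY rats Scn9a stood at 35.7 CPM in rat 32 and between 24.8 and 27.5 CPM in the other 5. Its gap to the nearest rat was 0.752 of the whole range. Chance flags about 1 in 20 groups. Without rat 32 the log2 fold change of Scn9a between the strains was 0.71 ± 0.11 (SE), and those of Cacna1a and Trpm4 were 0.27 ± 0.10 and 0.22 ± 0.09 (SE).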

How the results depend on the processing

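The direction of all 5 strain differences was the same under every alternative run. The number of members past the threshold was 2 with all 24 libraries, 0 in left CBs alone and 2 in right CBs alone, and it ran from 3 (without WKY 32 or without SHR 37, Cacna1a and Trpm4 being lost) to 5 when each rat was left out. The replicate block by rat (voom) gave 5, the replicate block of rat numbers shared by the strains, which pair nothing, 4, and counts summed per rat 4. Of all genes, in either direction, these 3 fits called 2300 of 14243, 1571 of 14188 and 2055 of 15086 in that order. With a rat left out, this ran from 2212 of 14223 genes (without WKY 32) to 2837 of 14254 (without SHR 34). Shares with all 24 libraries and each side alone are given above. This contrast supplied the names, so nothing is read from the members' counts. No member was called for side or interaction under any alternative, a replicate block by rat included (0 in each), though with that block 1 gene of all was called for side in SH rats. Under that block the interaction of Cacna1a was -0.0137 and that of Tmem37 -0.0171, opposite in sign to the values above. With all 24 libraries the side difference of Cacna1a in SH rats was 0.14, and the interactions of Cacna1g and Trpm4 were 0.0786 and 0.0636, also of opposite sign. Omitting a rat changed the sign of small side and interaction values: Cacna1a in WKY ran from -0.11 to 0.0231, Tmem37 in WKY from -0.11 to 0.23, Cacna1a in SH rats from -0.12 to 0.12, and the interactions of Cacna1a from -0.10 to 0.14, of Tmem37 from -0.00753 to 0.34 and of Trpm4 from -0.14 to 0.00856. The number of correlations called was 2 with all 24 libraries (Cacna1a with Trpm4 and with the glomus markers), 0 in left and 0 in right CBs alone, and 0 to 1 with a rat omitted. With all 24 libraries r turned to 0.39 for Scn9a with Cacna1a, 0.55 with Cacna1g, 0.23 with Trpm4 and 0.66 with the glomus markers, and to 0.86 for Cacna1g with the glomus markers. The library added there, the right CB of SHR 34, was the lowest for every member and glomus marker. Right CBs alone gave -0.22 for Cacna1a with Tmem37 and -0.17 for Tmem37 with the glomus markers, left CBs alone gave 0.0151 for Scn9a and 0.43 for Cacna1g with those markers, and a pseudocount of 0.25 gave -0.0106 for Tmem37 with them. With a rat omitted, r ran from -0.0619 to 0.34 for Cacna1a with Tmem37, from -0.15 to 0.0508 for Cacna1g and from -0.35 to 0.46 for Tmem37 with the glomus markers. Apart from the change in libraries that each alternative makes, the cause was not tested. With 7 to 43 reads per library, Tmem37 was limited most by depth.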
